A study of Mus musculus with 4 samples.

Results

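Mest, Copg2, Peg10, Sgce, Ppp1r9a, Nap1l5 and Herc3 are the genes of the imprinted domains on mouse chromosome 6, and they were taken by symbol from the deposited tables, where all 7 were found among 22492 gene symbols. They were measured in TetTKO cells, E14Tg2a mouse embryonic stem cells in which Tet1, Tet2 and Tet3 had been mutated with CRISPR, and in WT cells, the unmodified E14Tg2a line. Per the labels' protocols, the TetTKO cells came from clones picked after transient transfection in medium with MEK and GSK3 inhibitors, and both genotypes were then grown for 17 days or longer in medium with 15% serum and LIF at 1000 units/ml. A single whole-genome bisulfite library and a single RNA-seq library were made per genotype. There is thus no replicate check, no test was made, and each difference compares those libraries. How many clones the TetTKO libraries hold is not stated in the labels. Of the targeted genes, Tet1 had 4.36 FPKM in TetTKO cells and 15.1 FPKM in WT cells, Tet2 4.13 FPKM in TetTKO cells and 14.9 FPKM in WT cells, and Tet3 0.27 FPKM in TetTKO cells and 0.32 FPKM in WT cells.

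An imprinted gene is transcribed mainly from the chromosome of 1 parent. The mark is a differentially methylated region (DMR), set in the egg or, at fewer genes, in sperm, and kept on that parental copy after fertilisation, when most of the genome is demethylated. In mouse, Mest, the Peg10 and Sgce pair, and Nap1l5 start in such maternally methylated DMRs and are transcribed from the paternal copy. Zfp57, a zinc finger protein that binds a methylated TGCCGC motif, and its partner Trim28 keep these marks in embryonic stem cells. Tet enzymes oxidise 5-methylcytosine, a step towards its removal. Neither 5-methylcytosine nor its first oxidation product is converted by bisulfite, so the assay counts both as methylated.

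The genes lie in 3 places on mm9 chromosome 6, per the deposited tables. Sgce (4624349 to 4697204) and Peg10 (4697305 to 4710516) start head to head, with 101 bp between their intervals, and Ppp1r9a (4853319 to 5115661) follows 142803 bp beyond Peg10. Mest (30683505 to 30698466) and Copg2 (30698410 to 30846760) converge and overlap by 56 bp. Nap1l5 (58855226 to 58857120), a gene without introns, lies within Herc3 (58783693 to 58870390) on the opposite strand. The tables give no strand, which was taken from RefSeq promoter entries for 5 members and from general knowledge for Peg10 and Sgce. The RNA libraries were directional, but whether strand was used in counting is not given in the sources used here, so reads of Nap1l5 and Herc3, or of the overlap of Mest and Copg2, may not be separate.

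RefSeq promoter entries (GRCm38.p6, 250 bases before to 50 after a start) existed for 5 of the 7 members. Mest has an upstream start and an inner start, 4544 bp apart along the gene, and the deposited Mest interval begins at the upstream one. The entries of the upstream start (chr6:30733256-30733555, plus strand), the inner start (chr6:30737800-30738099, plus strand) and the Nap1l5 start (chr6:58907077-58907376, minus strand) are shown because methylation at these starts is described below, and that of Copg2 (chr6:30896745-30897044, minus strand) because its start is not in a DMR. Each runs 5′ to 3′, and capitals mark TGCCGC or, for the opposite strand, GCGGCA.
Mest upstream start: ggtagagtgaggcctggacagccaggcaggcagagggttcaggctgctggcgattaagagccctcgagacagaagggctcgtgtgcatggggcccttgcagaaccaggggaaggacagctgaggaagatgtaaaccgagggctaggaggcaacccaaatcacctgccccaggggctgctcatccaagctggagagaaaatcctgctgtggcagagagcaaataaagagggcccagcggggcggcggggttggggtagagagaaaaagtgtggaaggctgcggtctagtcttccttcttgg
Mest inner start: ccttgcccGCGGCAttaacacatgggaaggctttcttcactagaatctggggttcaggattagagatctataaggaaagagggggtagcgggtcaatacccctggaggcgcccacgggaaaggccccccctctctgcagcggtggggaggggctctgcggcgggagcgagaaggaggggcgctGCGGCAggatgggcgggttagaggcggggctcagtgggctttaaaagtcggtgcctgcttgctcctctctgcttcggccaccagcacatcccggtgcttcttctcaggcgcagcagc
Nap1l5 start: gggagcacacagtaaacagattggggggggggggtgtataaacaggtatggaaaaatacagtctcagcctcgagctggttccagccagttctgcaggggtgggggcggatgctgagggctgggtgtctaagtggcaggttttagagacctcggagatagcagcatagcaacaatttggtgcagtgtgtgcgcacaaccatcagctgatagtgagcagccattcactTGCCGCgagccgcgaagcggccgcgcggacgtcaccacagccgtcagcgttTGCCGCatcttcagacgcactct
Copg2 start: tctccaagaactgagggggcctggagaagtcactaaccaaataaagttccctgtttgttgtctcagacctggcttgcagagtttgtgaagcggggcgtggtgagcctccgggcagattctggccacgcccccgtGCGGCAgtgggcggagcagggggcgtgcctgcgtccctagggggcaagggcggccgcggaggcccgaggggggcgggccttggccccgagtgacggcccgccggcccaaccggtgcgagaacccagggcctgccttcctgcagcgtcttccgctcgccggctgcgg
The motif occurred 2 times at the Mest inner start, on the opposite strand, and 2 times at the Nap1l5 start, as written. It occurred 1 time at Copg2, which has no DMR at its start, and was not in the 300 bases of the upstream Mest start, of Herc3 or of either Ppp1r9a entry. Of 32851 RefSeq promoter entries of that length, 11.6% held it on either strand. A match is a description of the letters and no evidence of binding.

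Chromosome 6 as a whole differed between the genotypes, and the members are set beside it. Relative to the median autosome, chromosome 6 had a bisulfite coverage of 0.982 in TetTKO and 1.34 in WT, with 0.983 to 1.02 in TetTKO and 0.986 to 1.02 in WT over the other autosomes. Over the 309 genes of chromosome 6 that reached 5 FPKM in both, the median log2 fold change was -0.52, against -0.02 over 6219 genes of the other autosomes. An extra copy of chromosome 6 in WT cells is possible. Copy number was not measured, and its part in the values below was not tested. In bulk RNA, fewer cells of a type and less RNA per cell cannot be told apart.

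Of the 4 members known to be transcribed from the paternal copy, Mest, Peg10 and Sgce had more RNA in the TetTKO library, although the median gene of their chromosome had less, and Nap1l5 was too low to tell. RNA levels are in FPKM, which is scaled by transcript length and library size. Mest, the mesoderm-specific transcript, which encodes a protein of the alpha/beta hydrolase fold, had 10.6 FPKM in TetTKO cells and 6.35 FPKM in WT cells. Peg10, a gene derived from a retrotransposon and needed for the mouse placenta, had 14.4 FPKM in TetTKO cells and 7.41 FPKM in WT cells. Sgce, which encodes epsilon-sarcoglycan, had 2.97 FPKM in TetTKO cells and 1.65 FPKM in WT cells. Each was higher in the TetTKO library, by 1.67 times for Mest, 1.94 times for Peg10 and 1.80 times for Sgce. Nap1l5, a relative of the nucleosome assembly proteins, had 0.45 FPKM in TetTKO cells and 0.18 FPKM in WT cells, both under 1 FPKM and with an unknown read depth.

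The members that start outside a DMR did not share this pattern. Copg2, a subunit of the COPI vesicle coat, had 21.4 FPKM in TetTKO cells and 36.1 FPKM in WT cells, 1.69 times more in WT. In mouse brain, a long Mest transcript that runs into Copg2 is known to repress the paternal copy of Copg2. Whether this bears on the Copg2 values here was not tested. Ppp1r9a, which encodes the actin-binding protein neurabin, had 2.32 FPKM in TetTKO cells and 2.56 FPKM in WT cells. Herc3, a HECT-domain ubiquitin ligase gene, had 3.11 FPKM in TetTKO cells and 2.94 FPKM in WT cells. Copg2 was the most abundant member in both libraries, and Nap1l5 the least.

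**Figure D1:**
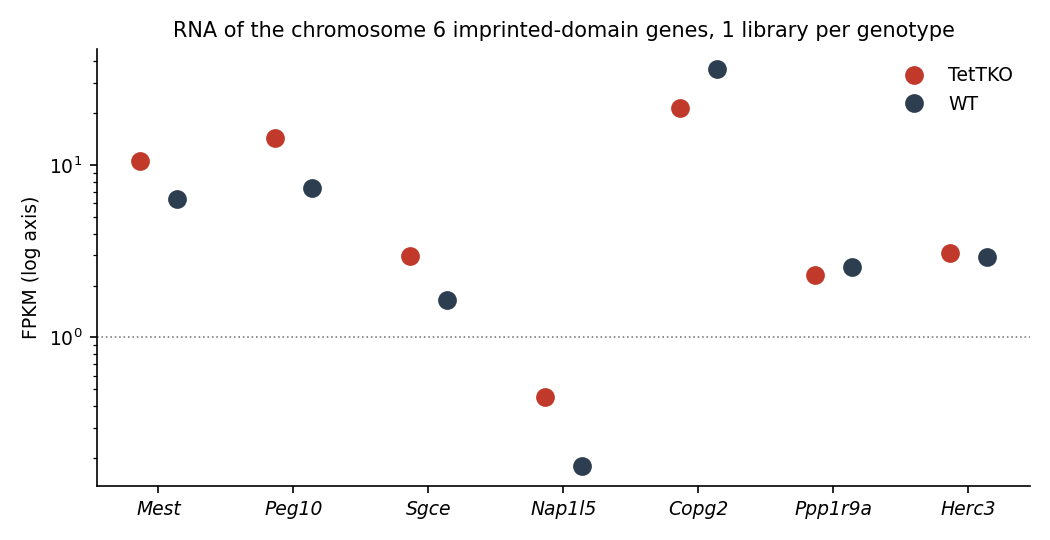
Each point is the FPKM of 1 library on a log axis, TetTKO in red and WT in dark blue, and the dotted line stands at 1 FPKM. Peg10 stood at 14.4 FPKM in TetTKO and 7.41 FPKM in WT, whereas Copg2 stood at 21.4 FPKM in TetTKO and 36.1 FPKM in WT.

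Differences were taken as log2((TetTKO + 1)/(WT + 1)) of FPKM, a scale that shrinks the differences of weakly expressed genes. On it, Peg10 had 0.87, Mest 0.66, Sgce 0.58, Herc3 0.06, Ppp1r9a -0.10 and Copg2 -0.73, while Nap1l5, the 1 member under 1 FPKM in both libraries, had 0.30. No member was at least 2-fold higher, against 1.77% of the 10978 genes that reached 1 FPKM in a library and 0.975% of the 513 such genes of chromosome 6. None was at least 2-fold lower, against 0.847% of all such genes and 5.46% of those of chromosome 6. Higher by any amount were 4 of the 6 members with at least 1 FPKM, whereas 48.9% of all genes and 17.2% of chromosome 6 genes were. The median log2 fold change over these 6 members was 0.32, against -0.01 over all 10978 genes and -0.43 over the 513 genes of chromosome 6.

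Against the better expressed genes of their own chromosome, Peg10 and Mest stood highest. Of the 309 genes described above, which include Peg10, Mest and Copg2, 27 were higher in TetTKO. Peg10 had the highest log2 fold change among them and Mest the next, 1.39 and 1.18 above the chromosome 6 median. Sgce and Nap1l5 are below that FPKM limit and so outside the 309 genes, and low genes spread more widely. The 95th percentile was 0.26 over the 309 genes and 0.47 over the 513 genes of at least 1 FPKM in either library. Sgce lay 1.10 above the median of the 309, of which 3 exceeded it, and Nap1l5 lay 0.82 above, with 11 higher than it. Herc3 lay 0.58 above and Ppp1r9a 0.42 above, with 24 and 36 of the 309 genes higher than they were. Copg2 lay 0.21 below the median, and 67 genes were lower than it. Copg, the paralogue of Copg2 on the same chromosome, which could share reads with it, had 38.9 FPKM in TetTKO cells and 53.5 FPKM in WT cells, a log2 fold change of -0.45.

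**Figure D2:**
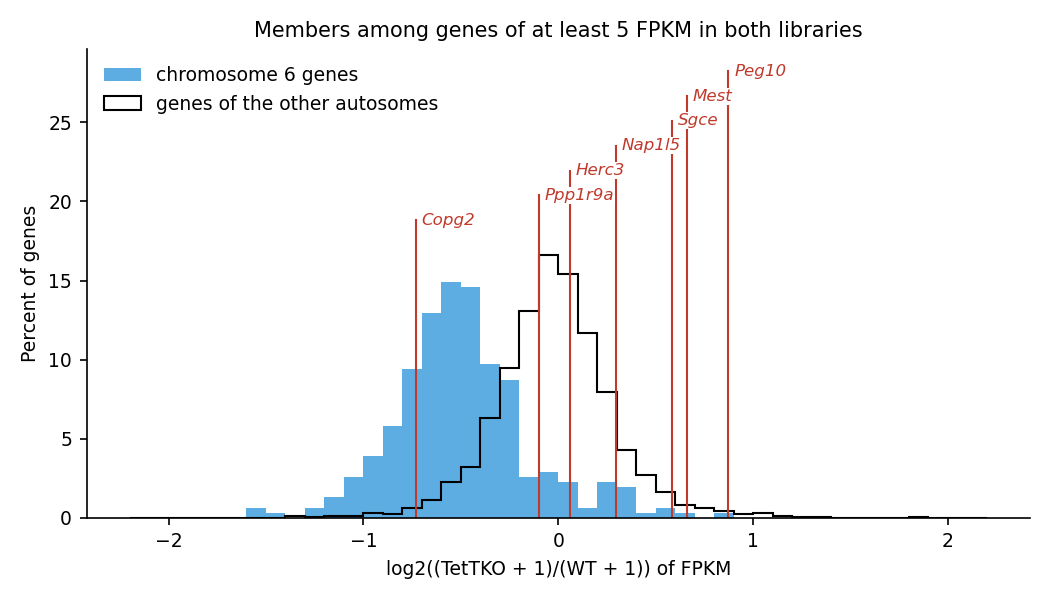
The x axis is the log2 fold change with a pseudocount of 1 FPKM and the y axis the percent of genes per bin, for chromosome 6 genes (filled) and the other autosomes (outline), of at least 5 FPKM in both libraries. Red lines mark the 7 members whatever their FPKM, and Peg10 and Mest stand to the right of the other chromosome 6 genes.

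The genes most like Mest in level and difference, by distance in mean log2(FPKM + 1) and log2 fold change over the 2 libraries among the 309 genes, were Parp12 (9.38 FPKM in TetTKO and 6.53 FPKM in WT), Akr1b10 and Tes, at distances of 0.21, 0.35 and 0.35. Nearest to Peg10 were Mest itself, Tmem40 (16.9 FPKM in TetTKO and 11.1 FPKM in WT) and Parp12, at 0.37, 0.48 and 0.55. With 2 libraries this likeness covers a level and a difference and nothing more.

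The neighbours of these domains were mostly lower in TetTKO, as were the genes of their chromosome. Of 22 genes listed around them, 21 were in the tables and 7 had at least 1 FPKM. Of these 7, 2 were higher and 5 lower in TetTKO and none by 2-fold, with a median log2 fold change of -0.16. Of the 513 chromosome 6 genes of at least 1 FPKM, 17.2% were higher, and their median was -0.43. At least 2-fold higher were 0.975% of the 513, and at least 2-fold lower 5.46%. Pon2, a paraoxonase family gene between Ppp1r9a and Asb4, had 4.87 FPKM in TetTKO cells and 2.83 FPKM in WT cells, 1.14 above the chromosome 6 median on the log2 scale. Casd1, on the other side of Sgce, had 5.61 FPKM in TetTKO cells and 7.33 FPKM in WT cells. Near Mest, Klhdc10 had 10.8 FPKM in TetTKO cells and 16.45 FPKM in WT cells, and Zc3hc1 had 69.6 FPKM in TetTKO cells and 93.9 FPKM in WT cells. Ube2h had 2.51 FPKM in TetTKO cells and 2.31 FPKM in WT cells, and Nrf1 34.9 FPKM in TetTKO cells and 36.1 FPKM in WT cells. Pigy, near Herc3, had 1.75 FPKM in TetTKO cells and 2.07 FPKM in WT cells. Calcr and Asb4, imprinted in some mouse tissues, and Klf14 stayed under 1 FPKM in both libraries.

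At the DMR starts, methylation was lower in TetTKO cells. The DMR starts here are the interval starts of Mest, Peg10, Sgce and Nap1l5. For Mest that is the upstream start, and whether the windows there lie within the Mest DMR was not determined. A 1 kb window with more than 15 listed CpGs is called dense here, and levels are means over its CpGs. Over the 9 dense windows within 2 kb of the starts of Mest, Peg10, Sgce and Nap1l5, which hold 262 CpGs, the mean was 34.5% in TetTKO cells and 48.9% in WT cells, a difference of -14.4 percentage points. As shares of read calls these were 33.0% of 2254 calls in TetTKO cells (exact 95% binomial interval 31.1 to 34.99) and 48.1% of 2830 calls in WT cells (46.2 to 49.9). Of the CpGs, 193 were lower and 65 higher in TetTKO. The share of lower CpGs over the genome was not counted. This count and those by start below thus describe these windows only. A read counts once for each CpG it covers. The binomial intervals cover counting error only, as for independent calls, not differences between cultures.

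Mest differed most, and over both of its starts. At the upstream start, 3 dense windows with 70 CpGs had 56.7% in TetTKO cells and 81.6% in WT cells, and 61 of the CpGs were lower. Around the inner start, 4 dense windows with 116 CpGs had 50.8% in TetTKO cells and 72.7% in WT cells, and 99 CpGs were lower. The window at 30688000 to 30688999, which holds 42 CpGs, had 46.1% of 380 read calls methylated in TetTKO cells (41.0 to 51.2) and 73.8% of 386 in WT cells (69.1 to 78.2). The largest difference, -35.6 points, was in the window just outside the interval (30682000 to 30682999), with 46.2% in TetTKO cells and 81.8% in WT cells. Single CpGs around the inner start mostly lay between 20 and 80%, 106 of 116 in TetTKO cells and 72 of 116 in WT cells, while 6 in TetTKO and 44 in WT were over 80%. A level near the middle is what 1 methylated and 1 unmethylated copy would give, but these files do not separate the parental copies. WT cells stood above such a level at Mest and TetTKO cells nearer to it. That level assumes 1 copy of each kind, whereas chromosome 6 had a relative coverage of 1.34 in WT. Copy number was not measured, so the level that an imprint would give in WT cells is not known.

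The shared start of Peg10 and Sgce was the least methylated of the DMR starts. Over its 4 dense windows and 137 CpGs the mean was 19.5% in TetTKO cells and 29.6% in WT cells, with 97 CpGs lower and 37 higher. The window holding the interval start of Peg10 (4697000 to 4697999) had 10.3% of 436 read calls in TetTKO cells (7.63 to 13.6) and 21.5% of 424 in WT cells (17.6 to 25.7). The next window had 19.03% of 473 in TetTKO cells (15.6 to 22.9) and 26.8% of 638 in WT cells (23.4 to 30.4). The difference widened to -30.1 points in the window after it (4699000 to 4699999), with 13.5% in TetTKO cells and 43.6% in WT cells over 21 CpGs. In the first window inside Sgce that does not reach Peg10 (4696000 to 4696999) the order was the other way, 38.5% in TetTKO cells and 31.3% in WT cells over 25 CpGs, with read intervals that overlapped. Further into Sgce (4695000 to 4695999) the level was again lower in TetTKO, at 69.7% in TetTKO cells and 83.2% in WT cells over 8 CpGs.

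Nap1l5 had an intermediate level in both genotypes. Its 2 dense windows, with 55 CpGs, had 43.7% in TetTKO cells and 55.4% in WT cells, and 35 CpGs were lower and 20 higher. The window with 37 CpGs (58856000 to 58856999) had 40.5% of 306 read calls in TetTKO cells (34.97 to 46.3) and 50.7% of 412 in WT cells (45.8 to 55.7), and these intervals overlap slightly. The other had 54.9% of 113 read calls in TetTKO cells (45.2 to 64.2) and 64.3% of 171 in WT cells (56.7 to 71.5). Their 4 neighbouring windows of at least 5 CpGs, centred 1620 bp and 3620 bp inwards of the start and on its other side, held 71.5 to 83.0% in TetTKO cells and 84.1 to 93.3% in WT cells. The dip thus spans 2 windows in both genotypes, and those neighbours differed by -14.6 to -4.21 points too.

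**Figure D3:**
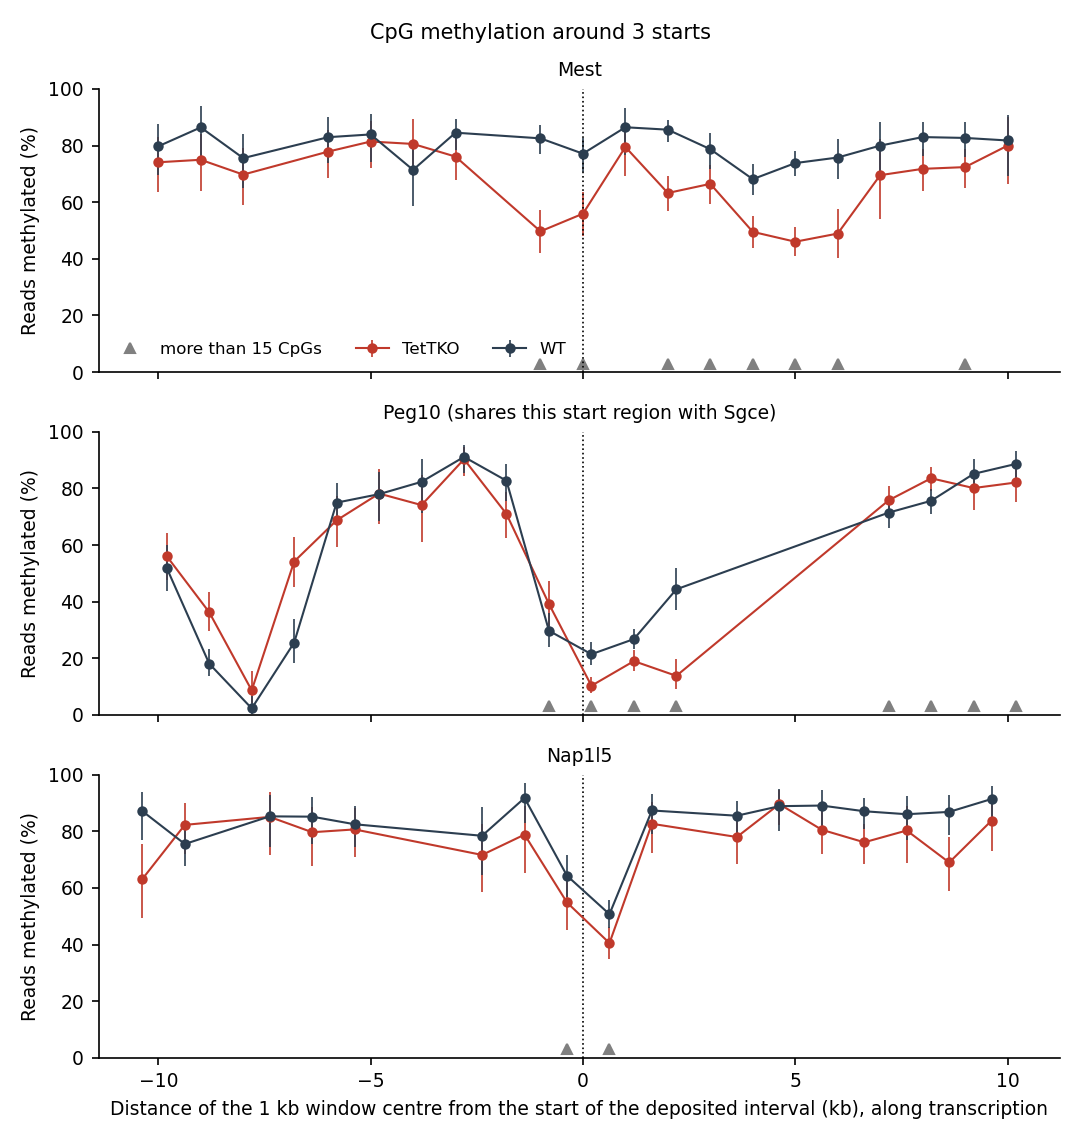
Percent of read calls methylated per 1 kb window of at least 5 CpGs against distance in kb from the start of the deposited interval, in the direction of transcription, with TetTKO in red, WT in dark blue and bars as exact 95% binomial intervals. Triangles mark dense windows, and lines join windows across gaps with too few CpGs. The TetTKO line runs below the WT line at the upstream and inner starts of Mest and just inside Peg10.

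Copg2 and Ppp1r9a start in windows with little or no methylation in either genotype, whereas the deposited Herc3 interval starts in methylated DNA. The dense window at the Copg2 start had 1.43% in TetTKO cells and 0.61% in WT cells over 51 CpGs. The window that holds the Herc3 interval start (58783000 to 58783999) had 73.7% in TetTKO cells and 85.9% in WT cells over 10 CpGs. The 1 dense window that reaches within 2 kb of it (58781000 to 58781999), centred at -2193 bp from the start and outside the interval, had 0.38% in TetTKO cells and 0.45% in WT cells over 70 CpGs. The window between them had 30.6% in TetTKO cells and 35.04% in WT cells. At Ppp1r9a, the window at the start had 0 methylated of 374 read calls in TetTKO cells (upper bound 0.981%) and 0 of 362 in WT cells (upper bound 1.01%). The next windows inwards of Ppp1r9a had 24.1% in TetTKO cells and 29.5% in WT cells, and then 58.0% in TetTKO cells and 45.0% in WT cells. Over the 5 dense windows near the starts of these 3 genes the mean was 7.53% in TetTKO cells and 6.62% in WT cells.

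Dense windows of the genome with similar WT levels had other median differences. Of 112415 dense windows, 45.1% were lower in TetTKO, and the median difference was 0.456 points. Among those with 20 to 40% in WT the median difference was 13.3 points, with 40 to 60% it was 10.1 points, with 60 to 80% it was -0.271 points and over 80% it was -6.81 points. These classes are set by the WT value, so they carry its counting error, and the part of that error was not tested. Of the 13 dense windows at the DMR starts, both Mest starts included, 12 were lower in TetTKO. Of the 13, 12 also lay below the 5th percentile of the difference in their own class. The exception to both counts of 12 was the window at 4696000 to 4696999, inside Sgce. The share of all dense windows whose read intervals did not overlap was not counted, so no such count is given for these windows. The inner start of Mest was included after seeing the data.

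Mest and Peg10 each held a dense window with a large difference. At least 30 points lower were 0.0365% of all dense windows, 41 in number, and 0.126% of those on chromosome 6, which are 9 windows. The upstream window of Mest and the Peg10 window at 4699000 to 4699999 were 2 of these 9, and of the 63 dense windows of the members no others were.

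**Figure D4:**
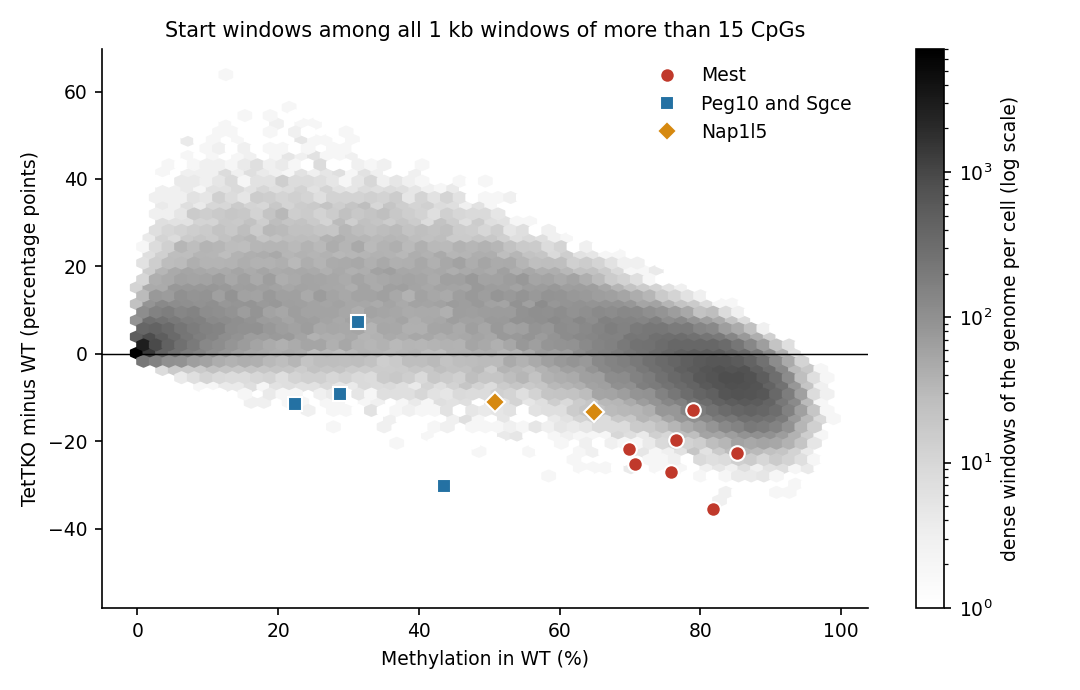
Each dense window of the autosomes and X is placed by its WT methylation in percent (x axis) and by TetTKO minus WT in percentage points (y axis), with darker cells holding more windows on a log scale. Coloured symbols are the 13 windows at the DMR starts, of which 12 lie below 0 and below the 5th percentile of the difference in their WT class.

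Of the maternally methylated DMR genes on other chromosomes, Peg3, Plagl1 and Zrsr1 were also lower in TetTKO cells at their starts, and Mcts2 was higher. Dense start windows could be defined for Peg3, Plagl1, Zrsr1 and Mcts2. At Peg3 they had 25.4% in TetTKO cells and 37.6% in WT cells, at Plagl1 34.6% in TetTKO cells and 58.9% in WT cells, and at Zrsr1 13.5% in TetTKO cells and 29.8% in WT cells. At Mcts2 the order was reversed, with 24.2% in TetTKO cells and 14.6% in WT cells. Whether these windows lie within the DMRs was not determined, and they were not set beside dense windows of their WT class. Over these 9 windows and 275 CpGs the mean was 22.8% in TetTKO cells and 34.3% in WT cells, a difference of -11.5 points, beside -14.4 points on chromosome 6. The chromosomes that carry these genes had coverages within 2% of the median autosome in both libraries, whereas chromosome 6 had 1.34 in WT. The part of copy number in the differences at either set of starts was not tested.

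**Figure D5:**
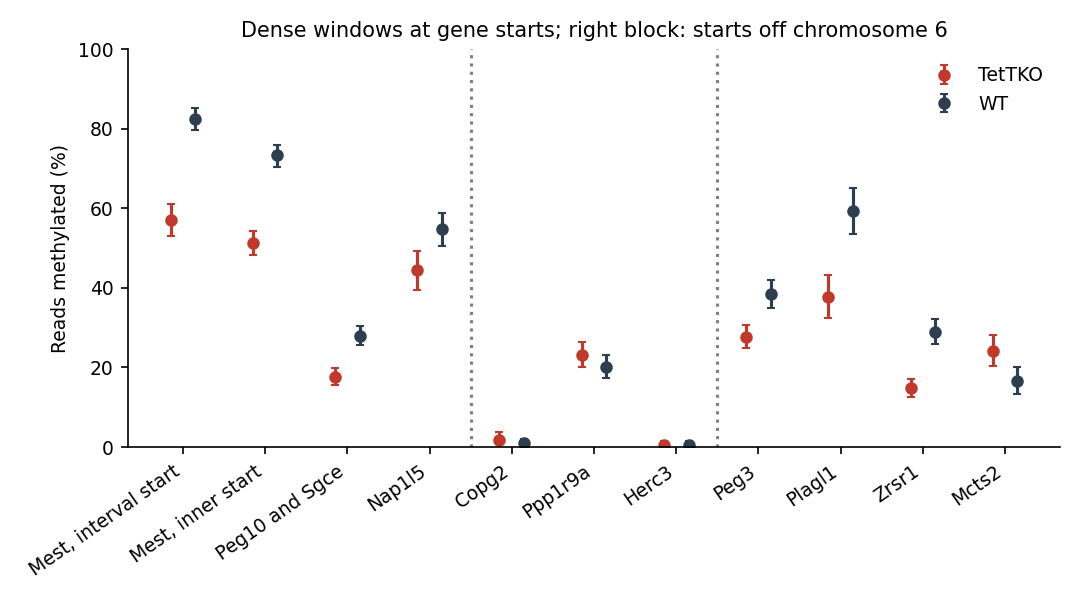
Percent of read calls methylated, pooled over the dense windows at each start, for TetTKO (red, left) and WT (dark blue, right) with exact 95% binomial intervals. The left block holds the DMR starts of chromosome 6, the middle block the dense windows near the starts of Copg2, Ppp1r9a and Herc3 (for Herc3 upstream of its interval), and the right block the starts off chromosome 6, where Mcts2 alone was higher in TetTKO.

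Coverage at these windows moved with the genotype too. WT had 1.26 times as many reads per CpG as TetTKO over the DMR start windows, against a ratio of medians of 1.21 for dense windows of chromosome 6 and 0.887 for those of the other autosomes. The ratio was 1.28 at the upstream start of Mest, 1.20 at Peg10 and Sgce and 1.39 at Nap1l5, but 0.966 around the inner start of Mest. Whether this coverage bears on the methylation levels was not tested.

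Over whole intervals the members were mostly lower in TetTKO, as was the genome. The Mest interval had 63.5% in TetTKO cells and 79.8% in WT cells over 265 CpGs, and Nap1l5 40.7% in TetTKO cells and 55.6% in WT cells over 46 CpGs. Copg2 had 70.0% in TetTKO cells and 78.7% in WT cells, Herc3 73.9% in TetTKO cells and 82.4% in WT cells, and Peg10 49.1% in TetTKO cells and 56.9% in WT cells. Sgce and Ppp1r9a differed least, with 71.2% in TetTKO cells and 74.3% in WT cells for Sgce and 70.5% in TetTKO cells and 72.7% in WT cells for Ppp1r9a. Over the 504 windows of at least 5 CpGs in the intervals and 10 kb each side, the median difference was -6.05 points, close to -5.79 over 1223855 windows of the genome and -6.27 over those of chromosome 6. Lower in TetTKO were 378 of the 504 windows, against 72.1% of all windows and 75.3% of chromosome 6 windows, so the members' intervals as a whole did not stand apart. All 16 windows that touch the Mest interval were lower.

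A few windows inside Ppp1r9a and Sgce had far more methylation in TetTKO cells. Over member windows of any density, the share was close to that of the genome. At least 30 points higher were 4 of the 504 windows, against 0.67% of all windows and 0.558% of those of chromosome 6. At least 30 points lower were 2, against 0.638% of all windows and 0.57% of those of chromosome 6. Ppp1r9a held 3 of the higher ones, all among the 31 dense windows of its interval and 10 kb each side. As much higher were 3 of the 63 dense windows of the members, 1.55% of all dense windows and 1.34% of those of chromosome 6. All 3 had 20 to 40% in WT cells. Of the dense windows in that class, 925 of 9877 in the genome and 58 of 551 on chromosome 6 were as much higher. The dense Ppp1r9a windows at 4854000 to 4854999 and 4962000 to 4962999 were in that class too, with differences of -5.41 and 13.8 points. At 33181 bp inside Ppp1r9a (4886000 to 4886999) the level was 66.8% in TetTKO cells and 35.4% in WT cells, at 70181 bp (4923000 to 4923999) 69.9% in TetTKO cells and 39.4% in WT cells, and at 105181 bp (4958000 to 4958999) 52.8% in TetTKO cells and 20.1% in WT cells. The other lay 61704 bp inside Sgce (4635000 to 4635999), with 64.0% in TetTKO cells and 27.9% in WT cells over 8 CpGs. Their place relative to exons was not analysed here, because no mm9 gene models were used.

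Of the genes that keep or set imprints, all 15 listed had at least 1 FPKM, 10 were higher and 5 lower in TetTKO, and the median log2 fold change was 0.14, beside 48.9% higher and a median of -0.01 over the 10978 genes. Zfp57 had 63.6 FPKM in TetTKO cells and 73.2 FPKM in WT cells, and Trim28 had 989.7 FPKM in TetTKO cells and 1013 FPKM in WT cells. Dnmt1, the maintenance methyltransferase gene, had 65.8 FPKM in TetTKO cells and 59.8 FPKM in WT cells. Dnmt3b, a de novo methyltransferase gene, passed the 2-fold rule, at 149 FPKM in TetTKO cells and 66.85 FPKM in WT cells, and no other did, beside 1.77% of the 10978 genes. Dnmt3a was just under it, at 30.3 FPKM in TetTKO cells and 14.7 FPKM in WT cells. Uhrf1, a cofactor that recruits Dnmt1 at replication, had 71.8 FPKM in TetTKO cells and 109 FPKM in WT cells. The part of these genes in the methylation of the members was not tested.

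Markers of embryonic stem cells, the labelled cell type, were all present in both libraries. The 7 genes ranged from 26.4 to 3344 FPKM in TetTKO cells and from 49.3 to 3211 FPKM in WT cells, with Esrrb the lowest and Dppa5a the highest. Of these 7, 5 were lower and 2 higher in TetTKO, beside 51.0% lower over the 10978 genes. Among the 5, Sox2 and Pou5f1 differed little, with log2 fold changes of -0.03 and -0.11. Nanog had 71.0 FPKM in TetTKO cells and 116.3 FPKM in WT cells, Esrrb 26.4 FPKM in TetTKO cells and 49.3 FPKM in WT cells, and Zfp42 513 FPKM in TetTKO cells and 698 FPKM in WT cells. Nanog lies on chromosome 6 and was 0.18 below the median of that chromosome on the log2 scale. Markers of other cell types were mostly low. The 7 trophoblast markers summed to 13.6 FPKM in TetTKO cells and 8.77 FPKM in WT cells, most of it from Tfap2c, with Gcm1 at 1.41 FPKM in TetTKO cells and 0.15 FPKM in WT cells, and Prl3d1 and Tpbpa were listed at 0 in both. The 5 mesoderm markers summed to 2.23 FPKM in TetTKO cells and 1.22 FPKM in WT cells. The 5 markers of extra-embryonic endoderm summed to 4 FPKM in TetTKO cells and 1.17 FPKM in WT cells, and the 6 fibroblast markers to 1.63 FPKM in TetTKO cells and 1.50 FPKM in WT cells, with Lum at 0 in both. Of the neuronal list, 5 of 6 symbols were in the tables, and Stmn2 and Tubb3 made up nearly all of 100.14 FPKM in TetTKO cells and 164 FPKM in WT cells, while Snap25 and Syt1 were under 0.1 FPKM. The summed trophoblast, mesoderm, extra-embryonic endoderm and fibroblast markers were thus higher in TetTKO, and the summed neuronal markers lower. Apart from Tfap2c, no marker of those higher lists passed 1.44 FPKM in either library. How often equally low genes were higher in TetTKO was not counted. Of the 7 stem cell markers 5 were lower, Sox2 and Pou5f1 by little. The part of cells of other types in the values of Mest, Peg10 and Sgce was not tested.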

How the data were processed

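Trim Galore, Bismark 0.7.9, Bowtie, SAMtools, TopHat2 2.0.2, Cufflinks 2.0.2 and mm9 appear in the submitters' processing notes, without roles or settings. The deposited methylation files give, per CpG, the methylated fraction, with its methylated read count and its coverage. They list the same 14323377 CpGs, each with at least 5 reads in both libraries, and hold 150132176 read calls in TetTKO and 132794183 in WT. The deposited expression files give FPKM by the authors, rounded to 2 decimals, so read depth is unknown and no counting interval can be given.

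From these, FPKM rows of 1 symbol were summed, and 8 rows with intervals under 300 bp were left out of gene counts. Levels were compared as log2 with a pseudocount of 1 FPKM. CpG fractions were averaged over fixed 1 kb windows, and exact 95% binomial intervals were taken on read calls. Relative coverage left out CpGs with more than 50 reads. Starts of genes were the lower interval end on the plus strand and the upper end on the minus strand. Snrpn, with no dense window within 2 kb of its interval start, and Impact, with no promoter entry to give its strand, were not used here. Calculations (Python 3.11.15, pandas 2.3.3, SciPy 1.17.1) were tested on simulated data. Named genes were the 7 members, listed neighbours of at least 1 FPKM, imprint genes past 2-fold, the nearest 3 genes to Mest and Peg10, and marker lists. Calcr, Asb4, Klf14, Zfp57, Trim28, Dnmt1, Uhrf1, Dnmt3a, Gcm1, Nanog, Esrrb, Zfp42, Dppa5a, Sox2, Pou5f1, Tet1, Tet2, Tet3 and single windows were named after their values were seen. Members and lists were chosen with earlier results of these data known.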

Additional observations from a re-analysis of the deposited data

How the results depend on the processing

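The lower methylation of the DMR starts kept its direction under every alternative run, and its size depended on which windows entered. The difference of -14.4 points was -11.6 points within 1 kb of the starts and -8.75 points with CpGs of at least 10 reads in both libraries, where 2 windows of Peg10 and Sgce were left and none of Mest or Nap1l5. With the inner start of Mest in place of the upstream one, a choice made after seeing the data, it was -14.9 points. The dense windows near the starts of Copg2, Ppp1r9a and Herc3 differed by 0.912 points, or 3.13 points as shares of read calls, and by -0.544 points in windows of at least 10 CpGs and -0.389 points within 1 kb. The same starts could not be given a value with CpGs of at least 10 reads, since no dense window was left. The median difference over all member windows was -5.25 points in windows of at least 10 CpGs, -6.79 with CpGs of at least 10 reads and -6.71 with the window grid moved by 500 bp.

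For RNA, the members' median log2 fold change of 0.32 was 0.41 with a pseudocount of 0.1 FPKM, 0.15 with 5 FPKM, 0.30 with no filter and 0.66 over the 3 members of at least 5 FPKM. Relative to the chromosome 6 median it was 0.84, and in the same order 0.94, 0.59, 0.82 and 1.18. It was 0.77 and 0.85 with that median taken over genes of at least 1 and 20 FPKM. No member passed 2-fold under any pseudocount or by plain ratio, Nap1l5 left out for its level. No paired analysis was possible because each genotype had 1 library per assay.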
